A study of Mus musculus with 9 samples.

Results

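The cardiac myosin and troponin genes encode the motor and the calcium switch of the heart muscle sarcomere. They were followed in neonatal rat ventricular cardiomyocytes (NRVMs) that overexpressed LacZ, Nrf1 or Nrf2. The set holds 10 genes, taken by name: the heavy chains *Myh6* and *Myh7*, the regulatory light chains *Myl2* and *Myl7*, the essential light chains *Myl3* and *Myl4*, and the troponins *Tnnt2*, *Tnni1*, *Tnni3* and *Tnnc1*. All 10 were measured, among 14443 genes listed for every group. RNA was sequenced in 9 libraries, 3 per group. The cells came from newborn Sprague Dawley rats, although the species field of the sample labels names the mouse. After 48 h in culture they received adenovirus at a multiplicity of infection of 50, and RNA was collected 48 h after infection. The 3 groups shared the strain, the culture and the infection and differed in the insert carried by the virus, which was the bacterial enzyme LacZ in the controls (Adeno-LacZ) and mouse Nrf1 or mouse Nrf2 in the others (Adeno-Nrf1, Adeno-Nrf2). Nrf1 (*Nfe2l1*) and Nrf2 (*Nfe2l2*) are related transcription factors that act on genes of protein turnover and of the antioxidant defence. The inserts stood under the viral CMV promoter, which is active in many cell types, and which cells of the culture expressed them was not measured here. The comparison asks how the contractile gene programme of the cells stood after each factor was raised.

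In the sarcomere, thick filaments of myosin pull on thin filaments of actin. A myosin molecule carries a pair of heavy chains, which split ATP and move, and each heavy chain binds an essential and a regulatory light chain that stiffen and tune its lever arm. On the thin filament the troponin complex holds the filament closed until calcium binds. Troponin C is the calcium sensor, troponin I the inhibitory subunit, and troponin T ties the complex to tropomyosin. Several of these proteins exist as paralogs that replace each other during development or differ between atrium and ventricle. Around birth, rodent ventricles shift from the slow β heavy chain (*Myh7*) to the fast α heavy chain (*Myh6*) under thyroid hormone, and from slow skeletal troponin I (*Tnni1*) to cardiac troponin I (*Tnni3*).

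The deposited tables give 1 mean of normalized reads per group. Each mean stands in 2 tables under different size factors, and the whole reads of each library could be solved from the pair of means for all 14443 genes. The 3 libraries of a group are called A, B and C, since their replicate numbers cannot be told from the means. They held between 7960807 and 11959747 counted reads. Levels below are these reads divided by the size factor of the library, and fold changes are log2 ratios of the authors' means. Standard errors, intervals and adjusted p-values are from limma on the recovered reads, with Benjamini-Hochberg adjustment over 11324 genes. The 2 kinds of log2 value differed by at most 0.016 for any of the 10 genes. Nothing in the labels says that the 3 libraries of a group came from separate cultures or animals. The p-values thus measure the spread between these libraries, which may be technical. Limma takes the spread of a gene jointly over all 9 libraries, so comparisons with LacZ also draw on the spread within Nrf1 and Nrf2. The SE can therefore be too small where LacZ spread most. For *Myl4* the SD was 18.5% of the mean in LacZ, 1.6% in Nrf1 and 3.3% in Nrf2. *Nfe2l2* averaged 3455 ± 49.4 normalized reads in LacZ (SD, n = 3), 2859 ± 40.3 in Nrf1 and 74592 ± 6130 in Nrf2, and so was high in the libraries labelled with it. *Nfe2l1* was not analysed here. The LacZ libraries A and B differed from each other more than any other pair of a group, with a chi-square of 5.0 per gene against 1.5 to 4.48 in the others, so every pair differed by more than sampling noise.

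Nrf1 NRVMs held less of the cardiac myosin and troponin transcripts than LacZ NRVMs, most of all of *Myh7*, *Myl2* and both troponin I genes. With Nrf1, 9 of the 10 genes fell by the limma test and none rose, whereas 32.4% of all genes were called lower and 35.2% higher by the same test. Past a 1.5-fold ratio of the means, 5 of the 10 were lower with Nrf1 (*Myh7*, *Myl2*, *Myl7*, *Tnni1* and *Tnni3*) and none was higher, beside 17.3% and 11.5% of all genes. Among genes with means averaging at least 1000, as those of every member but *Myl7* did, 5.88% were lower past 1.5-fold. At a limit of 2-fold, 1 of the 10 was lower with Nrf1 beside 9.13% of all genes, and at 1.2-fold 7 were, beside 30.6%. The median log2 ratio of the 10 genes was -0.60, with a range from -1.07 to -0.08, and the median of all genes was 0.01.

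With Nrf2, 5 of the 10 genes rose over LacZ by the limma test (*Myh6*, *Myl4*, *Tnnt2*, *Tnni1* and *Tnni3*), 2 fell (*Myh7* and *Myl2*) and 3 did not pass, against 29.3% of all genes called higher and 27.5% called lower. None of the 10 passed 1.5-fold in either direction, a ratio that 9.14% of all genes passed upwards and 10.4% downwards. At the lower limit of 1.2-fold, 2 of the 10 were higher and 1 was lower, beside 23.4% and 24.6% of all genes. The median log2 ratio of the 10 was 0.18, and that of all genes was -0.0032. The median was 0.08 without LacZ library A and 0.11 with each group scaled to its summed means. Measured directly against Nrf1, all 10 genes were higher with Nrf2 by the limma test, beside 27.4% of all genes called higher and 28.2% called lower. In the ratio of means, 6 of the 10 were higher past 1.5-fold (*Myh6*, *Myh7*, *Myl2*, *Myl7*, *Tnni1* and *Tnni3*) and none was lower, beside 11.5% and 4.98% of all genes. At 2-fold, 2 of the 10 were higher beside 5.16% of all genes, and at 1.2-fold 9 were, beside 25.2%. The median of the 10 genes in that comparison was 0.69. The 2 comparisons against LacZ share the LacZ libraries.

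As a share of all counted reads, the 10 transcripts made up 1.08% ± 0.06 in LacZ (SD, n = 3), 0.751% ± 0.0075 in Nrf1 and 1.09% ± 0.014 in Nrf2. The Nrf1 libraries lay between 0.743% and 0.756%, below every LacZ library (1.02% to 1.15%) and every Nrf2 library (1.076% to 1.103%), while LacZ and Nrf2 overlapped. In bulk RNA, fewer cardiomyocytes and less of a transcript per cardiomyocyte cannot be told apart.

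**Figure D1:**
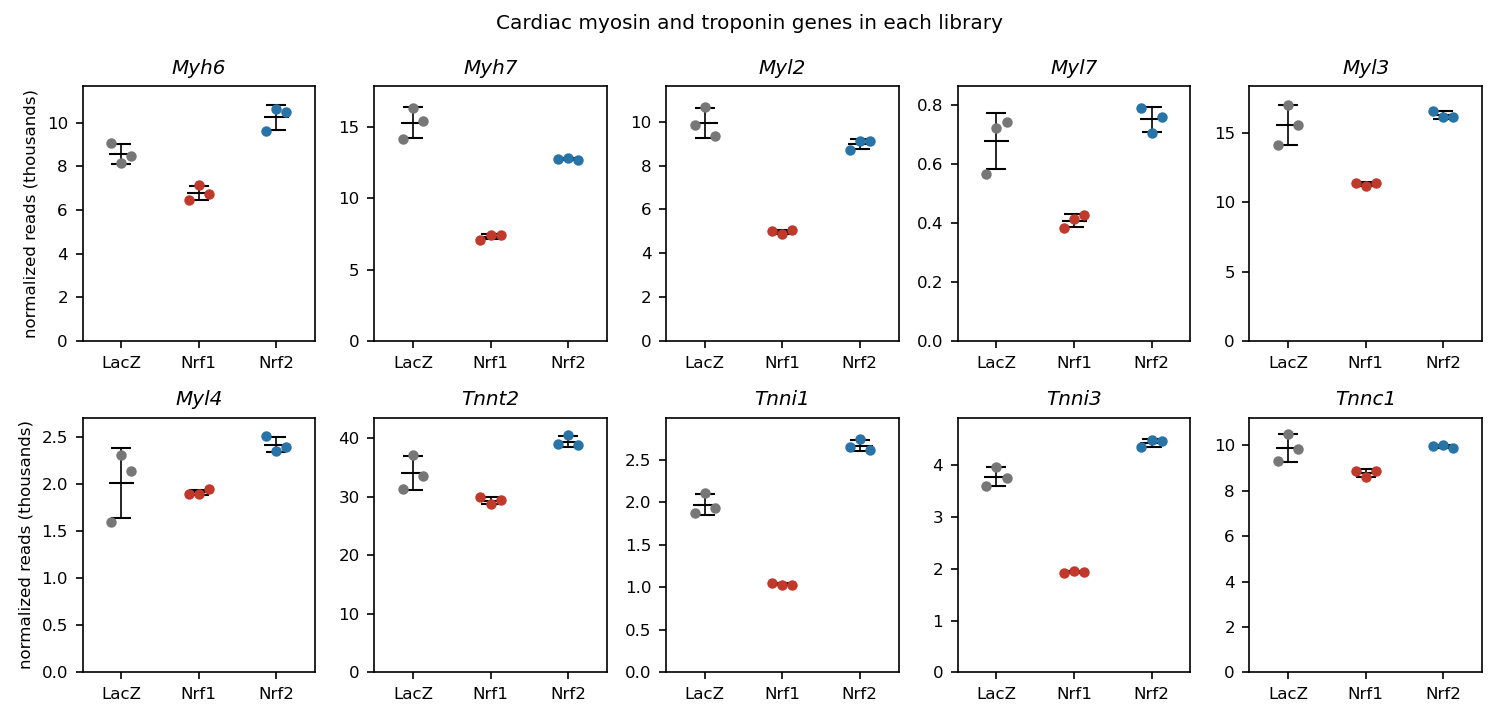
Normalized reads (in units of 1000, axis from 0) of each of the 10 genes in LacZ, Nrf1 and Nrf2. Points are libraries A, B and C from left to right, the horizontal bar is the mean and the error bar 1 SD (n = 3). For every gene but *Myl4*, all 3 Nrf1 libraries lie below all LacZ libraries, as they did for 33.8% of all genes.

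The heavy chains did not move equally. *Myh7*, the slow β heavy chain, held 14204, 16368 and 15431 normalized reads in the LacZ libraries, 7115, 7414 and 7445 in the Nrf1 libraries and 12765, 12822 and 12678 in the Nrf2 libraries. The 3 groups did not overlap, with Nrf1 far below and Nrf2 slightly below LacZ. It had the lowest Nrf1 ratio of the 10 genes, at -1.07 on the log2 scale (limma SE 0.039, adjusted p = 4.54e-14), and 8.21% of all genes had a lower ratio. With Nrf2 its ratio over LacZ was -0.26 (SE 0.036, limma adjusted p = 5.52e-06). Between the factors, *Myh7* was 0.80 higher with Nrf2 (SE 0.039, limma adjusted p = 6.07e-12).

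*Myh6*, the fast α heavy chain of the adult rodent ventricle, held 9042, 8149 and 8483 normalized reads in LacZ, 6457, 7128 and 6727 in Nrf1 and 9588, 10631 and 10474 in Nrf2. Here the order of the groups was Nrf1, LacZ, Nrf2, again without overlap. The ratio was -0.34 with Nrf1 (SE 0.045, limma adjusted p = 2.38e-06) and 0.26 with Nrf2 (SE 0.042, limma adjusted p = 3.82e-05). *Myh6* and *Myh7* therefore lay on opposite sides of LacZ in the Nrf2 cells. Between Nrf2 and Nrf1 the *Myh6* ratio of 0.59 was just past 1.5-fold, and it fell under that line without Nrf2 library B (0.56), without Nrf2 library C (0.57) or without Nrf1 library A (0.56). *Myh6* and *Myh7* are adjacent and nearly identical in their coding sequence. How reads that match both were counted is not given in the sources used here, so the split of reads between them is uncertain.

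The balance of the heavy chains, taken within each library and so free of scaling, moved towards *Myh6* in both overexpression groups. The reads of *Myh6* divided by those of *Myh7* ranged from 0.498 to 0.637 in LacZ, from 0.904 to 0.961 in Nrf1 and from 0.751 to 0.829 in Nrf2. None of the groups overlapped, and Nrf1 lay furthest from LacZ. The ratio averaged 1.66-fold higher in Nrf1 than in LacZ (log2 difference 0.73, library SD 0.05 in Nrf1 and 0.18 in LacZ). It was 1.44-fold higher in Nrf2 than in LacZ (0.52, SD 0.08 in Nrf2). For Nrf1 the change came with lower reads of both genes, with the larger drop in *Myh7*, and for Nrf2 with a lower *Myh7* and a higher *Myh6*. In an exact two-sided permutation test of the libraries, p was 0.1 for each of these differences, the smallest that 3 against 3 libraries can give, and the Benjamini-Hochberg value over the 21 pair comparisons made in all was 0.14. Since genes differ in length, the size of such a read ratio does not compare the abundance of the transcripts, and it is used here between groups.

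**Figure D2:**
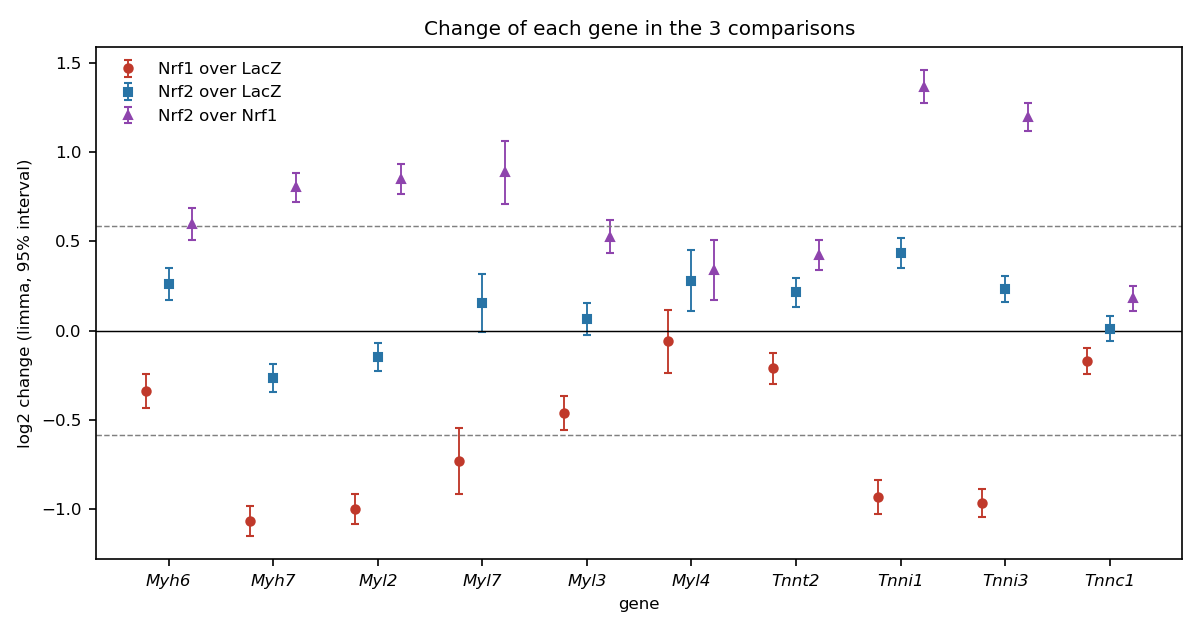
Log2 change of each gene with its 95% interval from limma in Nrf1 over LacZ (circles), Nrf2 over LacZ (squares) and Nrf2 over Nrf1 (triangles). Dashed lines mark 1.5-fold. *Myh7*, *Myl2*, *Myl7*, *Tnni1* and *Tnni3* sit below the lower line with Nrf1, and no gene crosses either line with Nrf2 over LacZ.

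The regulatory light chains, whose phosphorylation adjusts the force of contraction, were both lower with Nrf1. *Myl2*, the ventricular form, held 9843, 10680 and 9339 normalized reads in LacZ, 5009, 4890 and 5063 in Nrf1 and 8702, 9138 and 9107 in Nrf2. Every Nrf1 library was far below the rest, and every Nrf2 library was just below the lowest LacZ library. The log2 ratio was -0.999 with Nrf1 (SE 0.040, limma adjusted p = 1.59e-13). With Nrf2 it was -0.15 (SE 0.037, limma adjusted p = 0.00237), and -0.09 without LacZ library B (limma adjusted p = 0.0136).

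*Myl7*, the atrial regulatory light chain, was listed with 568, 724 and 744 normalized reads in LacZ, 383, 413 and 426 in Nrf1 and 790, 705 and 761 in Nrf2. The Nrf1 libraries again lay apart, while LacZ and Nrf2 overlapped. The ratio was -0.74 with Nrf1 (SE 0.088, limma adjusted p = 7.65e-07). With Nrf2 it was 0.15, with a limma interval from -0.01 to 0.31 and an adjusted p of 0.092. This Nrf2 value passed the test when LacZ library B (0.21, limma adjusted p = 0.037) or LacZ library C (0.22, limma adjusted p = 0.032) was left out, and it was 0.03 without LacZ library A (limma adjusted p = 0.649). The balance of *Myl2* against *Myl7* overlapped between all groups, with read ratios of 12.5 to 17.3 in LacZ, 11.9 to 13.1 in Nrf1 and 11.0 to 12.96 in Nrf2.

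The essential light chains had Nrf1 ratios nearer to 0, and the 2 genes of this class differed in whether they passed the test. *Myl3*, the ventricular form, held 14118, 17056 and 15615 normalized reads in LacZ, 11400, 11169 and 11378 in Nrf1 and 16615, 16158 and 16133 in Nrf2. The Nrf1 libraries stood below all others, and the Nrf2 libraries fell within the spread of LacZ. The ratio was -0.47 with Nrf1 (SE 0.045, limma adjusted p = 4.60e-08). With Nrf2 it was 0.06, with a limma interval from -0.02 to 0.16 and an adjusted p of 0.202. It turned to -0.01 without LacZ library A or with libraries scaled to their total reads, and it passed the test at 0.14 without LacZ library B (limma adjusted p = 0.00136).

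*Myl4*, the atrial essential light chain, which the embryonic ventricle also makes, was the gene that did not pass the test with Nrf1. Its LacZ libraries held 1589, 2302 and 2134 normalized reads, its Nrf1 libraries 1888, 1892 and 1941 and its Nrf2 libraries 2503, 2350 and 2390. LacZ library A stood well below the other two, and all Nrf1 libraries fell inside the LacZ range. The Nrf1 ratio was -0.08, with a limma interval from -0.24 to 0.12 and an adjusted p of 0.543. Without LacZ library A the limma change was -0.22 (adjusted p = 8.19e-05), and without LacZ library B it was 0.05 (adjusted p = 0.550), so 1 control library decided this value. With Nrf2, *Myl4* rose by 0.27 (SE 0.081, limma adjusted p = 0.00696), and each Nrf2 library lay above each LacZ library. This limma change was 0.12 without LacZ library A (adjusted p = 0.0140) and 0.39 without LacZ library B (adjusted p = 0.00013).

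Within libraries, the reads of *Myl3* divided by those of *Myl4* ranged from 7.32 to 8.88 in LacZ, 5.86 to 6.04 in Nrf1 and 6.64 to 6.88 in Nrf2. The groups did not overlap, and both overexpression groups were shifted towards *Myl4*. The log2 differences from LacZ were -0.40 for Nrf1 and -0.21 for Nrf2 (exact two-sided permutation p = 0.1 each, the smallest possible here). Without LacZ library A the Nrf2 difference was -0.12.

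In the troponin complex, both inhibitory subunits fell about as far as *Myh7* with Nrf1, while the calcium sensor and the tropomyosin-binding subunit moved little. *Tnni3*, cardiac troponin I, the form that carries the sites for protein kinase A, held 3596, 3964 and 3756 normalized reads in LacZ, 1921, 1947 and 1937 in Nrf1 and 4341, 4484 and 4462 in Nrf2. The 3 groups were clearly apart, with Nrf1 lowest and Nrf2 highest. The ratio was -0.97 with Nrf1 (SE 0.038, limma adjusted p = 1.08e-13) and 0.23 with Nrf2 (SE 0.034, limma adjusted p = 1.14e-05). Between the factors it was 1.19 higher with Nrf2 (SE 0.037, limma adjusted p = 7.81e-15).

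*Tnni1*, the slow skeletal troponin I of the fetal heart, held 1878, 2107 and 1931 normalized reads in LacZ, 1047, 1024 and 1032 in Nrf1 and 2647, 2740 and 2608 in Nrf2. It too had Nrf1 lowest and Nrf2 highest without overlap. Its ratio was -0.93 with Nrf1 (SE 0.046, limma adjusted p = 3.03e-12) and 0.44 with Nrf2 (SE 0.040, limma adjusted p = 3.58e-08), the latter being the highest Nrf2 ratio of the 10 genes. The difference between Nrf2 and Nrf1, 1.36 (SE 0.044, limma adjusted p = 1.90e-14), was also the largest of the set, and 96.8% of all genes had a lower ratio in that comparison.

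The fetal and the adult troponin I kept nearly the same balance with Nrf1. The reads of *Tnni3* divided by those of *Tnni1* ranged from 1.88 to 1.95 in LacZ and from 1.83 to 1.90 in Nrf1, which overlap, and from 1.64 to 1.71 in Nrf2, below both. The log2 difference from LacZ was -0.03 for Nrf1 (exact two-sided permutation p = 0.2) and -0.20 for Nrf2 (p = 0.1, exact). In the Nrf2 libraries the fetal form thus made up more of the troponin I reads than in LacZ.

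*Tnnt2*, cardiac troponin T, held 31387, 37132 and 33558 normalized reads in LacZ, 30000, 28717 and 29424 in Nrf1 and 38991, 40512 and 38787 in Nrf2. Its groups did not overlap, but the gap between Nrf1 and the lowest LacZ library was narrow. The ratio was -0.21 with Nrf1 (SE 0.041, limma adjusted p = 0.000169) and 0.21 with Nrf2 (SE 0.039, limma adjusted p = 0.000128). *Tnnc1*, the calcium sensor that slow skeletal muscle shares, held 9294, 10497 and 9853 normalized reads in LacZ, 8879, 8597 and 8888 in Nrf1 and 9976, 10001 and 9899 in Nrf2. The Nrf1 libraries were just below LacZ, and Nrf2 fell inside the LacZ range. The *Tnnc1* ratio was -0.17 with Nrf1 (SE 0.035, limma adjusted p = 0.000294). With Nrf2 it was 0.01, with a limma interval from -0.06 to 0.08 and an adjusted p of 0.789, and it turned to -0.03 without LacZ library A and to -0.06 with libraries scaled to their total reads.

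The troponin I genes were also set against *Tnnt2* in the same library, a comparison chosen after the values were seen. With Nrf1, the *Tnni3* reads per *Tnnt2* read fell from between 0.107 and 0.115 in LacZ to between 0.064 and 0.068, a change to 0.594 of the control ratio. The *Tnni1* reads per *Tnnt2* read went from between 0.0568 and 0.0598 to between 0.0349 and 0.0357, or to 0.608 of the control ratio. In Nrf2 the *Tnni3* ratio was 0.111 to 0.115 and overlapped LacZ, and the *Tnni1* ratio was 0.0672 to 0.0679 and lay above it. The *Tnnc1* reads per *Tnnt2* read overlapped between LacZ (0.283 to 0.296) and Nrf1 (0.296 to 0.302) and were lower in Nrf2 (0.247 to 0.256). The exact two-sided permutation p was 0.1 wherever groups did not overlap and 0.2 or more elsewhere.

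**Figure D3:**
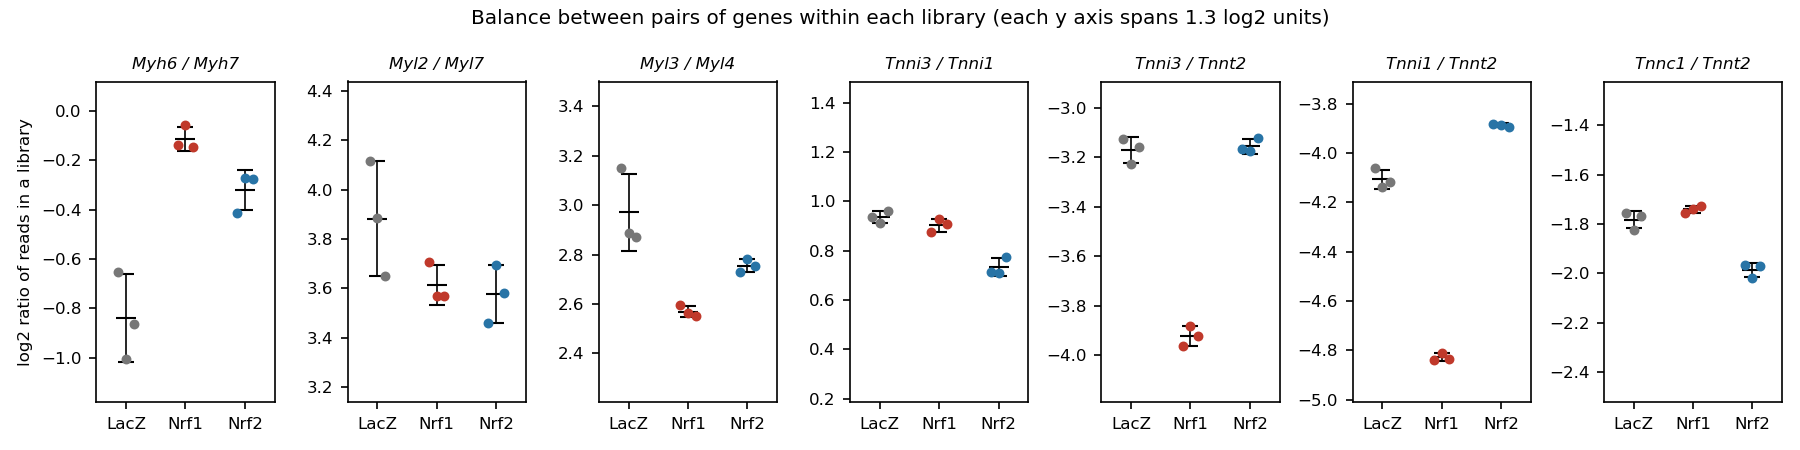
Log2 ratio of the reads of the first to those of the second gene in each library, for 7 pairs. Points are libraries A, B and C, the horizontal bar is the mean and the error bar 1 SD (n = 3), and every y axis spans the same number of log2 units. *Myh6* / *Myh7* is lowest in LacZ and highest in Nrf1, and *Tnni3* and *Tnni1* against *Tnnt2* are lowest in Nrf1.

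Across the 10 genes, the Nrf1 ratios fell into a lower range from -1.07 to -0.74, held by *Myh7*, *Myl2*, *Tnni3*, *Tnni1* and *Myl7*, and an upper range from -0.47 to -0.08, held by *Myl3*, *Myh6*, *Tnnt2*, *Tnnc1* and *Myl4*. Both ranges held ventricular and atrial light chains and both held genes known for fetal and for adult heart muscle. Within the lower range the limma intervals of neighbours overlapped, and those of its ends, *Myh7* (-1.15 to -0.98) and *Myl7* (-0.92 to -0.55), did not. The interval of *Myl3* (-0.56 to -0.37) overlapped that of *Myl7* by little. With Nrf2 over LacZ, the order ran from *Myh7* (-0.26) and *Myl2* (-0.15) through *Tnnc1* (0.01) and *Myl3* (0.06) to *Myl7* (0.15), *Tnnt2* (0.21), *Tnni3* (0.23), *Myh6* (0.26), *Myl4* (0.27) and *Tnni1* (0.44). The intervals of *Myl7*, *Tnnt2*, *Tnni3*, *Myh6* and *Myl4* all overlapped.

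The genes whose pair of ratios over LacZ lay nearest to that of *Myh7* were *Ccnd2*, *Dpp7*, *Cacna2d2*, *Fgf13* and *Cnn3*, out of 7813 genes whose 3 group means all reached 100. *Ccnd2*, a cyclin of the G1 phase, was nearest with -1.08 for Nrf1 and -0.28 for Nrf2, at a distance of 0.018 log2 units over the 3 groups. The others lay at 0.029 to 0.055, and 9 genes were within 0.1.

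Genes of the partner proteins of myosin and troponin moved in both directions with Nrf1. Of 9 measured thick filament partners, which anchor or modify myosin, 4 fell and 4 rose with Nrf1 by the limma test, and their median ratio was 0.11. *Myom1*, an M-band protein that crosslinks myosin tails, was lowest at -0.91 (limma adjusted p = 2.54e-12), and *Ppp1r12b*, a subunit of myosin light chain phosphatase, was highest at 0.67 (limma adjusted p = 3.06e-09). *Mybpc3*, cardiac myosin-binding protein C, chosen after its values were seen, stood at 0.11 with Nrf1 (limma adjusted p = 0.00149). With Nrf2, 3 of the 9 partners rose and none fell (median 0.02), from *Unc45b*, a myosin chaperone, at -0.09 to *Smyd1*, a methyltransferase needed for myofibril assembly, at 0.59. Of 7 measured thin filament partners, 5 rose and 1 fell with Nrf1 (median 0.24), and 6 rose and none fell with Nrf2 (median 0.26). *Acta1*, skeletal α-actin, which fetal and stressed heart muscle expresses, was highest in both, at 1.07 with Nrf1 (limma adjusted p = 7.71e-12) and 1.02 with Nrf2 (limma adjusted p = 2.31e-11). The lowest thin filament gene with Nrf1 was *Tmod1*, which caps the pointed end of actin, at -0.18. With Nrf2 it was *Tpm2*, a tropomyosin, at 0.0047. The summed level of the measured thin filament genes was 92504 to 109177 normalized reads in LacZ, 141131 to 143292 in Nrf1 and 129361 to 131066 in Nrf2, against 95520 to 108980, 73189 to 74262 and 106918 to 109540 for the 10 myosins and troponins.

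Other sarcomeric myosins and troponins, most of them typical of skeletal muscle, were measured too, several at low read numbers. Of the 9 measured, 1 rose and 2 fell with Nrf1, and 3 rose and 2 fell with Nrf2. *Tnnt1*, slow skeletal troponin T, was lowest in both, at -2.91 with Nrf1 (limma adjusted p = 8.92e-09) and -1.26 with Nrf2 (limma adjusted p = 2.44e-06). Its mean was 117 in LacZ and 15.6 in Nrf1. *Myh1*, a fast skeletal heavy chain, was highest with Nrf1 at 0.81 (limma adjusted p = 0.000428), and *Myh8*, the perinatal heavy chain, was highest with Nrf2 at 1.197 (limma adjusted p = 1.095e-05). Skeletal heavy chain genes resemble each other in sequence, so some of their reads may be split between them. Of the 9 myosins of smooth muscle and other cells, 4 rose and 5 fell with Nrf1, and 3 rose and 3 fell with Nrf2. *Myh14*, a nonmuscle heavy chain, was highest in both (1.13 and 0.56). *Myh11*, the smooth muscle heavy chain, was lowest with Nrf1 at -1.01, and *Myh9*, another nonmuscle heavy chain, was lowest with Nrf2 at -0.91.

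Other cardiomyocyte genes were followed as a further list. All 15 genes of that list were measured in every group, with summed levels of 66191 to 72902 normalized reads in LacZ, 71801 to 73764 in Nrf1 and 80438 to 81141 in Nrf2. With Nrf1, 5 rose and 6 fell (median -0.01), and with Nrf2, 7 rose and none fell (median 0.06). The highest in both was *Ckmt2*, the mitochondrial creatine kinase of muscle, at 2.73 with Nrf1 (limma adjusted p = 5.82e-14) and 2.37 with Nrf2 (limma adjusted p = 8.64e-13). The lowest in both was *Hrc*, a calcium-binding protein of the sarcoplasmic reticulum, at -1.87 with Nrf1 (limma adjusted p = 1.57e-10) and at -0.11 with Nrf2 (limma adjusted p = 0.257). Chosen after its values were seen, *Mb* (myoglobin) stood at -1.84 with Nrf1 (limma adjusted p = 1.69e-11) and *Ryr2*, the calcium release channel, at 0.83 (limma adjusted p = 1.33e-13). Centred on the median of this list (-0.01), the 10 myosins and troponins had a median of -0.59 with Nrf1, and 5 were lower past 1.5-fold. Since that shift was small, the count of 5 could hardly change, and cardiomyocyte content was not tested.

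Markers of other cells of the heart were present in every group and moved with the same comparisons. The 10 fibroblast markers all fell with Nrf1, with a median ratio of -1.82, and 9 of them fell with Nrf2, with a median of -0.97. Their summed level was 123615 to 129726 normalized reads in LacZ, 31619 to 34106 in Nrf1 and 64438 to 69648 in Nrf2. The extremes were *Col1a2* (-2.43 with Nrf1), a collagen chain, and *Tcf21* (-1.83 with Nrf2), a transcription factor of cardiac fibroblasts, and the least moved were *Tcf21* with Nrf1 (-0.92) and *Pdgfra*, a growth factor receptor, with Nrf2 (-0.40). The *Col1a2* change with Nrf1 rested on low and variable reads, with means of 216 in LacZ and 40.0 in Nrf1 (limma SE 0.74, adjusted p = 0.00581). The *Col1a2* change with Nrf2, at -0.49, did not pass (limma adjusted p = 0.418). Of 10 leukocyte markers, 9 fell and 1 rose with Nrf1 and 9 fell with Nrf2 (medians -1.59 and -1.08). Their summed levels were 1736 to 2516 in LacZ, 1006 to 1028 in Nrf1 and 969 to 1072 in Nrf2. *Adgre1* of macrophages was lowest with Nrf1 (-1.87) and *Lyz2*, lysozyme, with Nrf2 (-1.60), and *Csf1r*, a macrophage growth factor receptor, was highest in both (0.43 and 0.08). Of 8 endothelial markers, 6 fell with Nrf1, and 6 fell and 1 rose with Nrf2 (medians -0.90 and -0.68). Their sums were 1435 to 1476 in LacZ, 1039 to 1147 in Nrf1 and 1011 to 1248 in Nrf2. *Cdh5*, VE-cadherin, was lowest with Nrf1 (-1.03) and *Emcn*, a sialomucin, with Nrf2 (-1.19), and *Egfl7*, a secreted vascular factor, was highest in both (0.35 and 0.81). Of 6 smooth muscle and pericyte markers, 3 rose and 3 fell with Nrf1, between *Rgs5* of pericytes at -1.89 and *Acta2*, smooth muscle actin, at 0.84. The *Rgs5* means were low, at 22.8 in LacZ and 6.15 in Nrf1 (limma SE 0.62). With Nrf2 3 rose and 2 fell, between *Pdgfrb*, a pericyte receptor, at -1.13 and *Cnn1*, calponin, at 0.82. Their sums were 32527 to 38639 in LacZ, 58572 to 59406 in Nrf1 and 46182 to 49351 in Nrf2, and neonatal cardiomyocytes themselves express *Acta2* and *Tagln* of this list. No marker of these lists was at 0 in a whole group. The part of these cells in the values of the myosins and troponins was not tested.

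**Figure D4:**
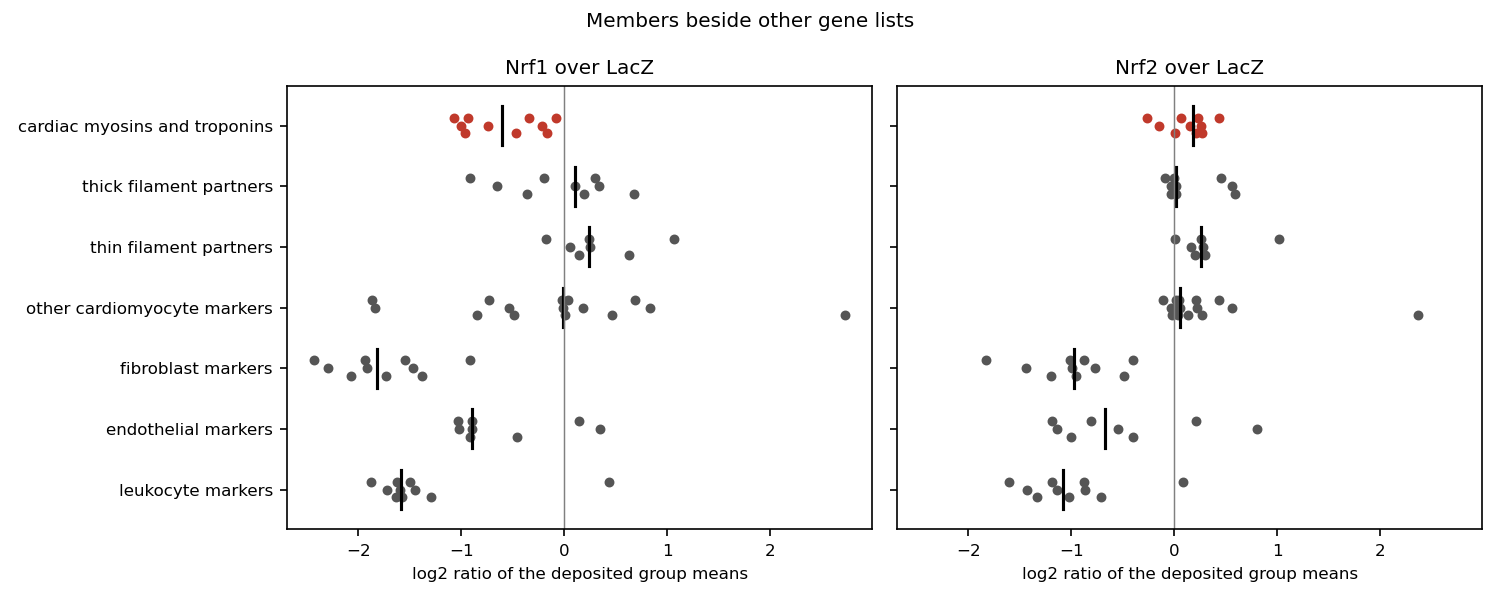
Log2 ratio of the deposited group means for the genes of 7 lists, in Nrf1 over LacZ (left) and Nrf2 over LacZ (right). Each point is a gene and the vertical bar is the median of the list, which for the 10 cardiac myosins and troponins is -0.60 with Nrf1 and 0.18 with Nrf2. The fibroblast and leukocyte medians are below 0 in both panels.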

How the data were processed

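RNA of NRVMs was prepared with a stranded mRNA kit and sequenced as single-end reads of 75 bases. Per the submitters' processing notes and the study's methods, the authors used FastQC 0.11.4, HISAT2 2.0.4 with rat Rnor 6.0, SAMtools 0.1.18 to remove duplicate reads, featureCounts 1.6.0 and edgeR 3.20.5. Removing duplicates from single-end reads can lower the reads of abundant transcripts such as these, and its effect was not tested. The recovered reads remained high, with 25734 to 46812 of *Tnnt2* per library, so how far duplicates were removed from these counts is uncertain. The signal that the authors deposited in 3 tables, each for 1 pair of groups, is the group mean of read counts divided by size factors. These size factors matched median-of-ratios factors computed from the recovered reads within 0.0102%, and the part of edgeR in this scaling is not known. The authors' fold change and p-value columns were not used. Genomic positions, sequences and gene lengths of the rat were not used here, so levels are not compared between genes.

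From the deposited means, log2 ratios were formed within each table, and genes with means averaging at least 10 served as background. A gene counted as higher or lower past 1.5-fold. Whole reads per library were then solved from the lowest steps of the means. Every gene of every group had exactly 1 solution (14679, 14579 and 14746 genes), and 0 of 404, 393 and 404 control genes had a solution after a mean was shifted by 1e-06 of its value. On simulated libraries 14259 of 14260 genes had 1 solution, and 14259 were right. This step was added after the data were seen. The reads of all 9 libraries went into limma 3.58.1 (voom weights, R 4.3.3) with group as the only term and an adjusted p under 0.05 as the limit, for genes with a mean of at least 10 normalized reads. On simulated Nrf1 over LacZ data of 11310 genes, 86 of 100 genes changed 1.5-fold and 94 of 100 changed 2-fold were called, with 11 of 11110 unchanged ones. The simulation gave every gene and group the same spread (dispersion 0.005). The real groups differed in spread, so these rates may not hold for comparisons with LacZ. Library pairs of a group all differed by more than sampling noise, so none was counted as 1 sample.

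The 10 genes and the 13 other lists (skeletal and nonmuscle myosins, filament partners, ubiquitin ligases, regulators, chamber and cell type markers) were chosen with earlier results of these data known. All 10 genes are named, and of each other list the genes with the highest and lowest ratio over LacZ, with *Nfe2l2* and the 5 genes nearest to the member whose Nrf1 log2 ratio had the largest absolute value. Genes named outside this rule are marked in the text. Alternatives were other fold limits, scalings, a pseudocount of 1, other filters and leaving out each library.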

Additional observations from a re-analysis of the deposited data

How the results depend on the processing

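No paired analysis was possible because the deposited means carry no replicate number and the recovered libraries could not be matched to the numbers in the labels. At a fold limit of 2, 1 of the 10 genes was lower with Nrf1 than LacZ (9.13% of all genes) and 2 were higher with Nrf2 than Nrf1 (5.16%). At a limit of 1.2, 7 were lower with Nrf1 (30.6%), 2 were higher and 1 lower with Nrf2 than LacZ (23.4% and 24.6%), and 9 were higher with Nrf2 than Nrf1 (25.2%). By the limma test, added after the data were seen, 9 were lower with Nrf1 than LacZ (32.4% of all genes). It called 5 higher and 2 lower with Nrf2 than LacZ (29.3% and 27.5%), and 10 higher with Nrf2 than Nrf1 (27.4%). The median Nrf1 ratio of the 10 ranged from -0.69 to -0.54 when 1 library was left out, and it was under 1.5-fold without Nrf1 library A (-0.58), LacZ library B (-0.54) or LacZ library C (-0.57). The Nrf2 median over LacZ ranged from 0.08 without LacZ library A to 0.21. The 5 genes lower past 1.5-fold with Nrf1 numbered 5 under each scaling and each left-out library. The scalings shifted this comparison by at most 0.06, too little to change that count. Centred on the other cardiomyocyte markers, which shifts Nrf2 over Nrf1 by 0.17, the median of the 10 in that comparison was 0.52 and *Myh6* was 0.42. No direction of a count or median turned in any alternative run. Of all genes, the share lower past 1.5-fold depended on the filter, at 17.3% with Nrf1 for means of at least 10, 10.8% for at least 100 and 5.88% for at least 1000. For Nrf2 over LacZ the shares were 10.4%, 6.11% and 3.02%, and for Nrf2 over Nrf1 the share higher was 11.5%, 6.65% and 4.03%. Without a filter it was 15.6% higher for Nrf2 over LacZ, and 20.1% higher and 8.72% lower for Nrf2 over Nrf1. The search for promoter motifs was not run. With 3 libraries a group, the exact permutation test cannot go below 0.1, and the spread of the LacZ libraries limits the small Nrf2 ratios.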

Other observations

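Chamber markers, regulators of the myosin genes and muscle ubiquitin ligases were measured beside the 10 genes. Of 6 measured atrial markers, 5 fell and 1 rose with Nrf1 by the limma test, beside 32.4% and 35.2% of all genes. The cells were ventricular, and chamber identity was not tested. *Gja5*, the connexin of atrial and conduction tissue, stood at -1.46 with Nrf1 (limma adjusted p = 2.03e-08) and at -1.43 with Nrf2 (limma adjusted p = 2.14e-08), and *Sln*, sarcolipin, an inhibitor of the calcium pump, at 1.54 (limma adjusted p = 2.53e-07) and 1.42 (limma adjusted p = 1.14e-06). With Nrf2, 3 of the 6 rose and 3 fell. *Nr2f1*, a nuclear receptor of atrial identity, chosen after its values were seen, was at -1.45 with Nrf1 and 1.09 with Nrf2, and the direct comparison of Nrf2 with Nrf1 gave 2.53 (limma adjusted p = 7.08e-09). Of the 3 ventricular markers, 2 rose and 1 fell with Nrf1, and 1 rose with Nrf2. *Hand1*, a transcription factor of the early left ventricle, was highest at 1.90 with Nrf1 (limma adjusted p = 3.60e-05) and 0.59 with Nrf2 (limma adjusted p = 0.108), and *Hey2*, a repressor of atrial genes, was lowest at -0.27 and -0.19. The *Hand1* means were low, at 12.7 in LacZ and 47.2 in Nrf1.

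Of 11 measured regulators known to act on the myosin genes, 4 rose and 2 fell with Nrf1 (median 0.01), and 4 rose and 2 fell with Nrf2 (median 0.05). *Thrb*, a thyroid hormone receptor, was highest in both, at 0.59 with Nrf1 (limma adjusted p = 4.20e-05) and 0.34 with Nrf2 (limma adjusted p = 0.00724). *Mef2a*, a muscle transcription factor, was lowest in both, at -0.53 with Nrf1 (limma adjusted p = 2.07e-09) and -0.32 with Nrf2 (limma adjusted p = 1.63e-06). Of 4 muscle ubiquitin ligases, 1 rose and 1 fell with Nrf1, and 2 rose and 1 fell with Nrf2. *Trim54* (MuRF3), which binds microtubules and the sarcomere, was highest at 1.14 with Nrf1 (limma adjusted p = 2.92e-12) and 1.91 with Nrf2 (limma adjusted p = 1.46e-15). *Trim63* (MuRF1), known to act on myosin and troponin I proteins, was lowest at -0.26 (limma adjusted p = 0.000117) and -0.15 (limma adjusted p = 0.0109). These are RNA levels and give no account of the ligases' activity.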
